A study of Mus musculus with 11 samples.

Results

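The 34 genes described here encode the machinery that licenses, starts and carries out DNA replication in S phase, and they were taken by gene symbol from a fixed list of names. All 34 were present among the 53947 gene rows of the table, and all 34 had enough counts to be among the 14133 genes tested. They were grouped by role into 2 E2F transcription factors, 9 genes of origin licensing and its control, 5 of helicase activation, 4 of the polymerases and primase, 6 of the clamp, its loader and lagging strand processing, 4 of nucleotide supply and 4 of chromatin and histone messenger RNA. A further 58 replication genes outside the list served for comparison.

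RNA was measured in aTC1-6 cells (alphaTC1-6), a dividing, immortalised line derived from glucagon-producing alpha cells of the mouse pancreas. There were 4 libraries with knockdown of Mettl3 (M3KD), 4 with knockdown of Mettl14 (M14KD) and 3 with a scramble control (SCR). Cells of all groups were transfected as they were plated, at 70% confluency, and collected 72 h after knockdown. Mettl3 is the catalytic subunit and Mettl14 the RNA-binding partner of the complex that writes N6-methyladenosine on messenger RNA. The comparisons ask how lowering either subunit relates to transcript levels in this line. The knockdown reagent was not given in the sources used here. No label states that replicates came from separate cultures, and p-values then cover the spread among these libraries alone, part of which may be technical.

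Before S phase, the origin recognition complex, Cdc6 and Cdt1 load the Mcm2 to Mcm7 helicase onto origins, and geminin (Gmnn) blocks a second loading by binding Cdt1. Cdc45, the GINS complex and Mcm10 then turn the loaded helicase into an active one, after which primase and the polymerases copy the strands around the sliding clamp Pcna. E2F factors drive transcription of much of this machinery as cells pass from G1 into S phase, and the retinoblastoma protein and its relatives hold them in check. In bulk RNA, fewer cells in S phase and less RNA per cell cannot be told apart.

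Values are CPM, counts relative to the library's total after TMM scaling (trimmed mean of M-values), with ± giving the SD over libraries (n = 4 for M3KD, n = 4 for M14KD, n = 3 for SCR). Changes are log2 fold changes ± SE from the quasi-likelihood F-test of edgeR, and a gene was called at a Benjamini-Hochberg adjusted p under 0.05 over all 14133 genes. Library totals ran from 19576632 to 22406527 counts, and members held 239 to 15149 counts per library. Mettl3 averaged 5.34 ± 0.45 CPM in M3KD, 15.4 ± 1.0 in M14KD and 14.9 ± 1.0 in SCR. Mettl14 averaged 14.7 ± 0.7 CPM in M14KD, 29.3 ± 1.0 in M3KD and 25.2 ± 1.7 in SCR, so each target was lowest in its own knockdown. SCR replicate 2 stood apart. Its 9 lung and airway markers summed to 104 CPM, against 2.79 to 5.43 in the other 10 libraries, its 7 blood and immune markers to 51.1 against 1.39 to 3.83, and its 5 endothelial and fibroblast markers to 17.3 against 1.12 to 4.30. Its 7 alpha cell markers summed to 33900 CPM, the lowest of the 11 libraries, with 37500 to 39200 in M3KD, 42200 to 44500 in M14KD and up to 41900 in SCR. Markers of delta, PP and epsilon cells summed to at most 0.357 CPM in any library and the 5 beta cell markers to 49.3 to 72.7 CPM (highest in SCR replicate 2), and the alpha hormone gene Gcg ran from 28740 to 38730 CPM over all 11 libraries. Nearly all of the beta cell sum was Nkx6-1 (48.9 to 71.95 CPM), while Ins1, Ins2, Pdx1 and Mafa each had at most 0.7 CPM in any library. Results are therefore given with and without SCR replicate 2, and the part of the foreign markers in them was not tested.

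Changes in the replication genes were small in every comparison. No member differed by more than 1.2-fold in M3KD against SCR, in M14KD against SCR or in M3KD against M14KD, with or without SCR replicate 2. Among the 8643 tested genes with mean CPM within the members' range, 11.5% passed 1.2-fold in M3KD against SCR, 6.66% in M14KD against SCR and 1.56% in M3KD against M14KD. Without SCR replicate 2 these shares were 9.94%, 5.21% and 1.57%. The members' log2 fold changes ran from -0.14 to 0.20 in M3KD against SCR, from -0.20 to 0.16 in M14KD against SCR and from -0.10 to 0.15 in M3KD against M14KD. The median absolute change was 0.06 on the log2 scale for M3KD against SCR, beside 0.13 for all genes tested, and 0.05 beside 0.11 for M14KD against SCR. All genes tested include those outside the members' CPM range, and this median was not taken within that range.

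In M3KD against SCR, 3 members rose (Mcm10, Gmnn and Tk1) and 6 fell (E2f1, Chaf1b, Uhrf1, Pold1, Lig1 and Mcm3). These 9 were 26.5% of the members, beside 31.3% of all genes tested (15.5% higher and 15.8% lower) and 40.1% of those within the members' CPM range. In M14KD against SCR, 5 members fell (Chaf1b, E2f1, Uhrf1, Pold1 and E2f2) and 0 rose by edgeR, 14.7% of the members beside 20.9% of all genes (10.1% higher and 10.8% lower) and 27.2% of those within that range. DESeq2 and limma-voom also called 0 members higher there, and 10 members had an unadjusted edgeR p under 0.05 in either direction, 29.4% beside 33.5% of all genes. Between the knockdowns only E2f2 was called by edgeR, higher in M3KD, 2.94% of the members beside 8.10% of all genes (3.66% higher and 4.44% lower in M3KD) and 11.3% of those within that range. With all libraries, the members' share in either direction was thus below both background shares in each comparison, a difference that was not tested. Members called lower alone were 17.6% in M3KD against SCR and 14.7% in M14KD against SCR, above the 15.8% and 10.8% of all genes. Those called higher in M3KD against SCR were 8.82%, below 15.5%. These differences were not tested either. Shares by direction were not counted within the members' CPM range, where calls in either direction were more frequent than over all genes. Members called in at least 1 of the 3 comparisons numbered 10, and the matching share of all genes was not counted. The median member's log2 fold change was -0.02 in M3KD against SCR and 0.00 in M14KD against SCR, beside 0.00 for all genes in both. Without SCR replicate 2 these medians were -0.04 and -0.03, and 23 of the 34 members had a negative value in each comparison, against 18 and 16 with it. Over all genes, 7194 and 7045 of 14316 were negative without SCR replicate 2, and 7201 and 7055 of 14133 with it. Leaving out SCR replicate 3 instead moved the members' medians the other way, to 0.02 and 0.03.

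The 95% intervals of the uncalled members are per gene, not adjusted for the number of genes, and rest on the spread among these libraries. Of the 25 members not called in M3KD against SCR, 23 had a 95% interval that lay within 1.2-fold in either direction, as did 28 of the 29 not called in M14KD against SCR and 32 of the 33 not called in M3KD against M14KD. The intervals that reached past 1.2-fold were those of Pcna and Gins1 in M3KD against SCR, of Gins1 in M14KD against SCR, and of Pcna in M3KD against M14KD. The lowest limit of an uncalled member was 0.828-fold in M3KD against SCR and 0.860-fold in M14KD against SCR. Without SCR replicate 2 these limits were 0.779-fold and 0.823-fold. Members' summed CPM was 5100 to 5260 in M3KD, 5145 to 5278 in M14KD and 5059 to 5406 in SCR, so the summed levels of the groups overlapped. The overlap came from SCR replicate 2 alone (5059 CPM). SCR replicates 1 and 3 had 5289 and 5406 CPM, above every knockdown library, a difference that was not tested. The proliferation markers Mki67, Top2a, Cdk1 and Ccnb1 summed to 1680 to 1730 CPM in M3KD, 1700 to 1760 in M14KD and 1680 to 1740 in SCR.

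**Figure D1:**
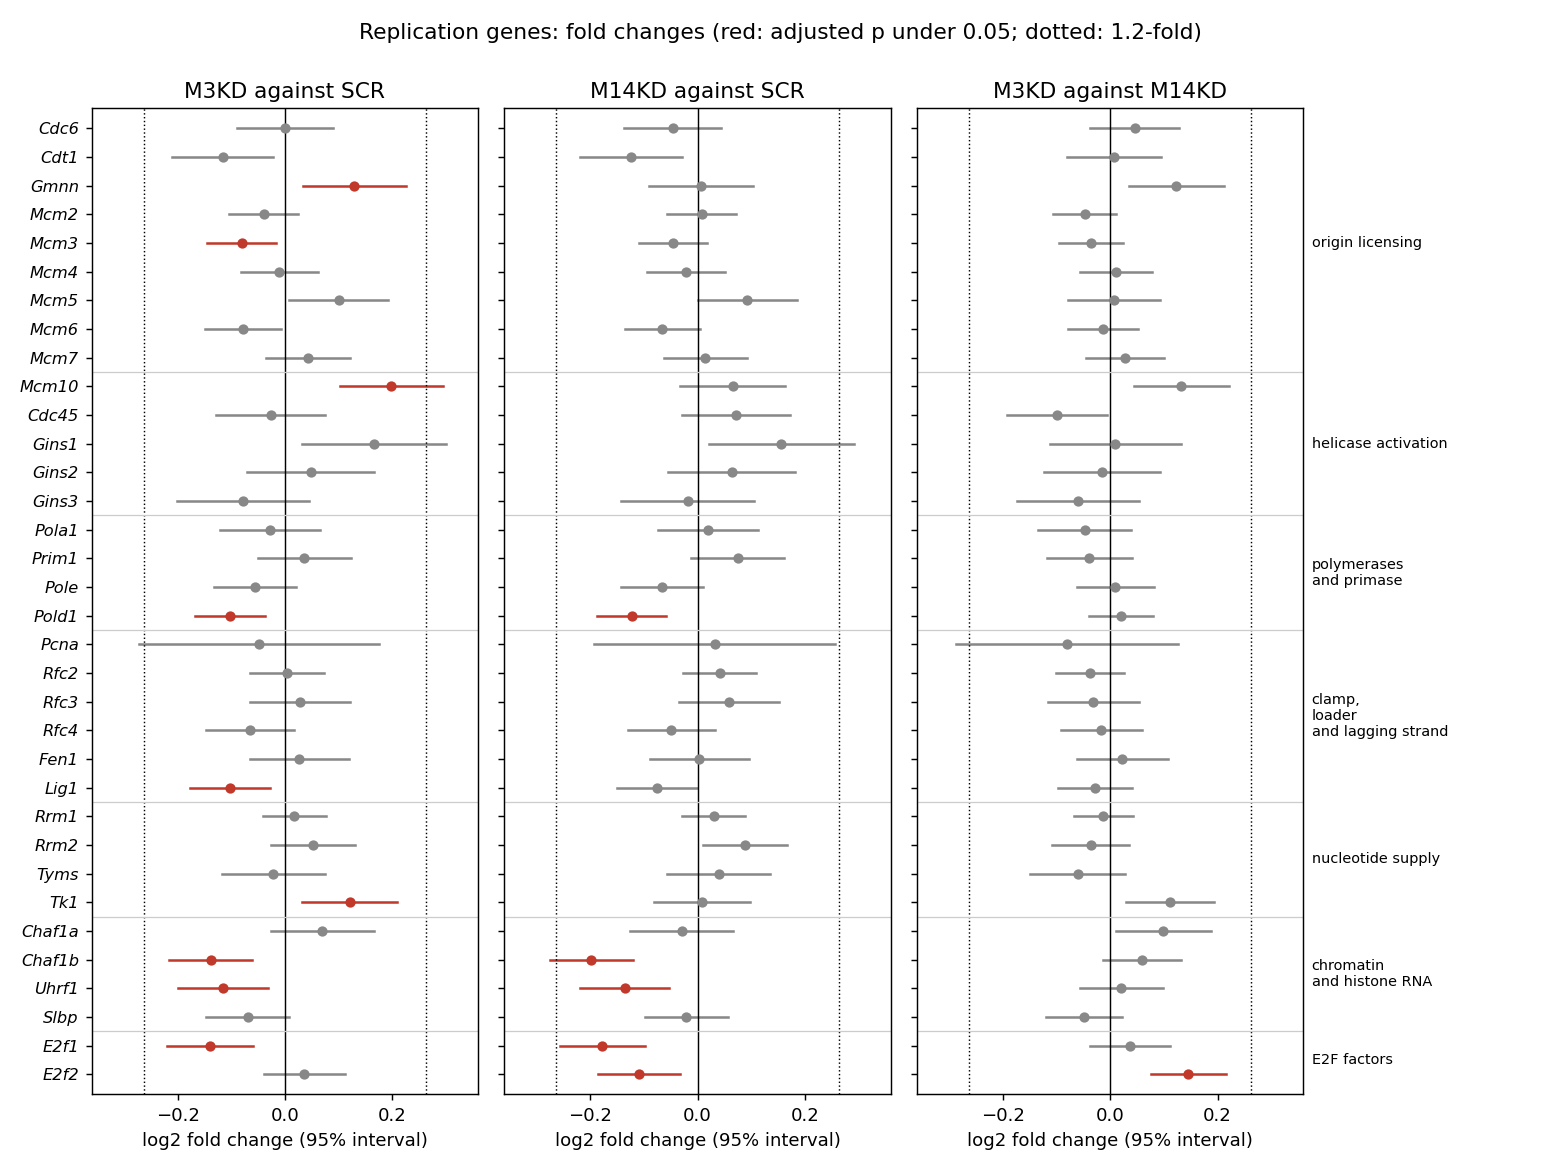
Log2 fold change of each of the 34 replication genes, ordered by role, in M3KD against SCR, M14KD against SCR and M3KD against M14KD; bars are 95% intervals, red points passed the edgeR test at an adjusted p under 0.05, and dotted lines mark 1.2-fold in either direction. Every point lies inside the dotted lines, and the red points number 9, 5 and 1.

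E2f1 and E2f2 are activating E2F factors, which switch on replication genes at the start of S phase. E2f1 had 85.5, 87.8, 85.8 and 88.0 CPM in M3KD (replicates 1 to 4, as in all such lists), 86.0, 78.3, 87.2 and 86.7 CPM in M14KD, and 98.3, 94.8 and 93.8 CPM in SCR. Every knockdown library was below every SCR library. E2f1 fell by 9.26% in M3KD (log2 -0.14 ± 0.04, edgeR adjusted p = 0.00808) and fell by 11.6% in M14KD (log2 -0.18 ± 0.04, edgeR adjusted p = 0.00237).

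E2f2 had 54.1, 54.8, 53.3 and 55.5 CPM in M3KD, 48.6, 49.0, 50.2 and 49.1 CPM in M14KD, and 54.1, 51.8 and 53.4 CPM in SCR. The M14KD libraries were the lowest and overlapped with neither M3KD nor SCR, whereas M3KD and SCR overlapped. Set against each other, the knockdowns differed: E2f2 was higher by 10.6% in M3KD than in M14KD (log2 0.15 ± 0.03, 95% interval 0.08 to 0.22, edgeR adjusted p = 0.00953), which tests the difference between both knockdowns directly. Against SCR it fell by 7.29% in M14KD (log2 -0.11 ± 0.04, edgeR adjusted p = 0.0377), and its log2 fold change in M3KD was 0.04 ± 0.04 (edgeR adjusted p = 0.484). The M14KD call was lost when any one of SCR replicates 1 and 3 or M14KD replicates 1, 2 and 4 was left out, with log2 values of -0.11 to -0.10; the M3KD against M14KD call was kept without each of the 11 libraries.

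E2F factors bind short GC-rich motifs with a run of T at one end, and these letters were looked up in the members' promoter windows. The motif was searched on both strands as 8 letters (TTTCCCGC, TTTGGCGC, TTTCGCGC and TTTGCCGC) and as the 7 letters left when the first T of each is dropped, so that every 8-letter match is also a 7-letter match. Windows ran from 250 bases before to 50 after each annotated start in RefSeq, build GRCm38.p6, and 28 of the 34 members had at least 1 window. The 8-letter motif was in a window of 13 of these 28 members (46.4%), beside 2.60% of 27025 genes, and the 7-letter motif was in 20 (71.4%), beside 10.9%. Those 27025 genes are all that had a window, whether expressed in these cells or not. A match is a description of letters, and these motifs were chosen after the values were seen. The sequences below are of 3 members that fell in both knockdowns (Chaf1b, Uhrf1 and Pold1) and of E2f2, which differed between them, with 7-letter matches in capitals. They are given 5′ to 3′ on the gene's strand and show matches before the start (Uhrf1), before and after it (Chaf1b) or after it (Pold1 and E2f2). The single window of E2f1, which also fell in both knockdowns, held no 7-letter match. That window is not shown, since 188 of its 250 bases before the annotated start lie in coding exons of E2f1 in GENCODE M21. Mcm10, which rose in M3KD, held no match in its window and is not shown either.
Chaf1b, chr16:93883651-93883900, plus strand: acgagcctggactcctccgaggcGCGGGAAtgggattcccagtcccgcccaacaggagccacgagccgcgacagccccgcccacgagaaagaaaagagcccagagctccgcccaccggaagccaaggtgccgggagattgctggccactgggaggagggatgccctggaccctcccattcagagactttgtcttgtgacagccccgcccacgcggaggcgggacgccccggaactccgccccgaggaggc
Chaf1b, chr16:93883917-93883942, plus strand: cctgcggcgcGCGGGAAgctgcgggc
Uhrf1, chr17:56304063-56304312, plus strand: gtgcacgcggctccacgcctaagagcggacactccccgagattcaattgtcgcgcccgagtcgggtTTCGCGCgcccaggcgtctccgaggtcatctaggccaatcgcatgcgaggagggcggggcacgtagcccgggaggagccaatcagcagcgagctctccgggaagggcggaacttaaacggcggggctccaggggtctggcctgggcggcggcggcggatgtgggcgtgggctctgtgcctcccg
Pold1, chr7:44548766-44548791, minus strand: gcggcgtatcttgtgGCGGGAAaagc
E2f2, chr4:136172298-136172323, plus strand: tttggcggcatatagtTTGGCGCtaa

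**Figure D2:**
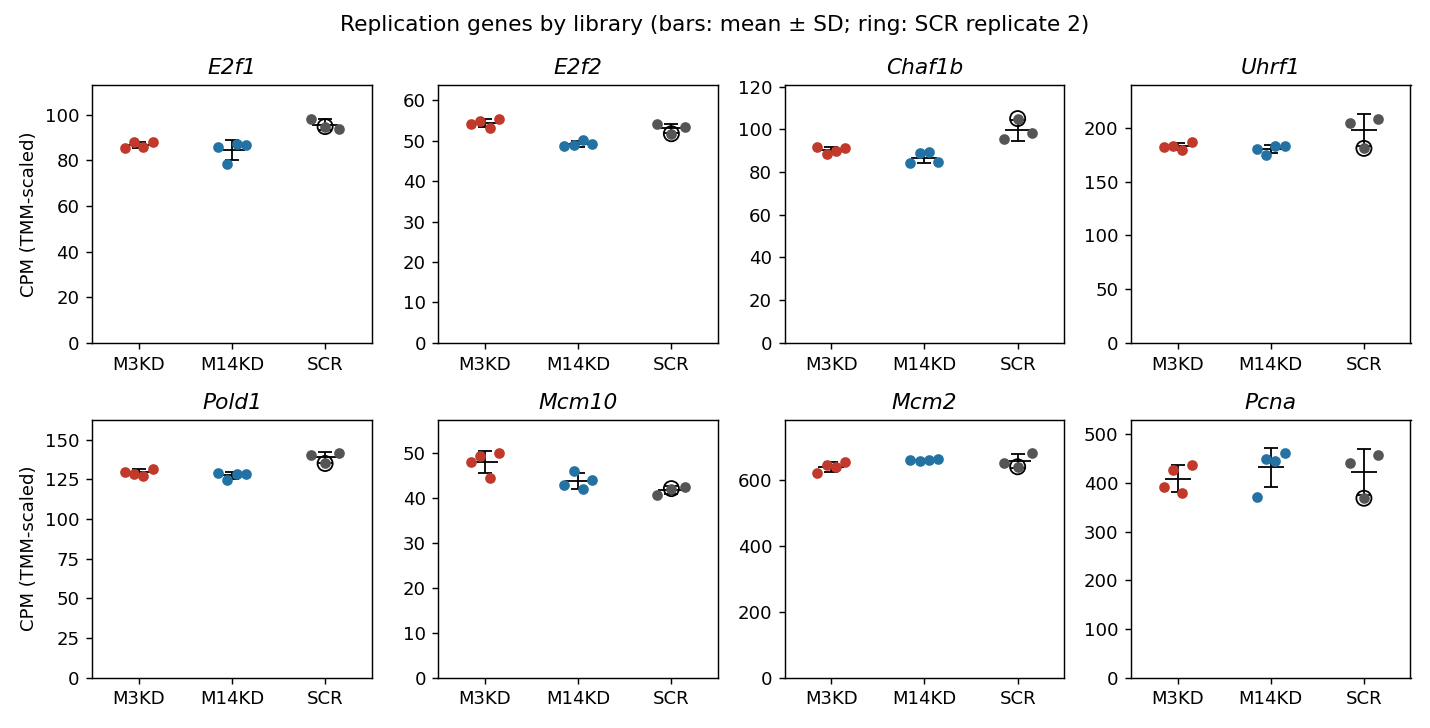
CPM (TMM-scaled) in each library of M3KD, M14KD and SCR for 8 replication genes, on axes that start at 0; horizontal bars are the mean, vertical bars the SD, and the ring marks SCR replicate 2. E2f1, Chaf1b and Pold1 sit lower in both knockdowns than in SCR, E2f2 is lowest in M14KD, Mcm10 is highest in M3KD, and Mcm2 and Pcna overlap between the knockdowns and SCR.

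Of the 4 chromatin genes, Chaf1b and Uhrf1 fell in both knockdowns. Chaf1a and Chaf1b are subunits of chromatin assembly factor 1, which deposits histones behind the fork, Uhrf1 brings the maintenance DNA methyltransferase to newly copied DNA, and Slbp binds the stem-loop of replication-dependent histone messenger RNAs. Chaf1b had 91.9, 88.5, 89.95 and 91.2 CPM in M3KD, 84.3, 88.9, 89.2 and 84.7 CPM in M14KD, and 95.5, 105.0 and 98.2 CPM in SCR. All knockdown libraries lay below all SCR libraries. Chaf1b fell by 9.14% in M3KD (log2 -0.14 ± 0.04, edgeR adjusted p = 0.00717) and fell by 12.8% in M14KD (log2 -0.20 ± 0.04, edgeR adjusted p = 0.000689). Without SCR replicate 2, its highest library, the log2 changes were -0.10 in M3KD (adjusted p = 0.0312) and -0.16 in M14KD (adjusted p = 0.00115).

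The partner subunit of Chaf1b gave a different pattern. Chaf1a had 126.7, 124.9, 123.5 and 124.6 CPM in M3KD, 115.8, 118.5, 116.7 and 115.7 CPM in M14KD, and 126.8, 105.6 and 124.6 CPM in SCR. Its M3KD libraries were all above its M14KD libraries, while SCR spanned both because SCR replicate 2 was the lowest of all 11 libraries. By edgeR with all libraries Chaf1a was not called in any comparison (log2 0.07 ± 0.05 in M3KD, -0.03 ± 0.05 in M14KD, and 0.10 ± 0.04 with adjusted p = 0.171 in M3KD against M14KD). Without SCR replicate 2 it fell in M14KD (log2 -0.11, adjusted p = 0.0136), was higher in M3KD than in M14KD (log2 0.10, adjusted p = 0.00747), and had a log2 change of -0.01 in M3KD. Exons of Chaf1a and of Ubxn6 on the other strand overlap by up to 2542 bases, and the strand setting of the counting was not given in the sources used here. Its level is uncertain to that extent.

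Uhrf1 had 181.8, 182.8, 179.7 and 187.1 CPM in M3KD, 180.4, 174.4, 182.9 and 183.1 CPM in M14KD, and 204.5, 180.8 and 208.5 CPM in SCR. SCR replicates 1 and 3 were above all 8 knockdown libraries, and SCR replicate 2 lay among them. Uhrf1 fell by 7.65% in M3KD (log2 -0.11 ± 0.04, edgeR adjusted p = 0.0339) and fell by 8.99% in M14KD (log2 -0.14 ± 0.04, edgeR adjusted p = 0.0196). Without SCR replicate 2 the changes were -0.18 in M3KD (adjusted p = 2.23e-05) and -0.20 in M14KD (adjusted p = 6.88e-06). The M3KD call was lost in 7 of the 11 fits that left out a library (SCR replicates 1 and 3, M3KD replicates 1, 2 and 3, and M14KD replicates 1 and 4), with log2 values as near to 0 as -0.07, and the M14KD call in 4 (SCR replicates 1 and 3 and M14KD replicates 1 and 2), with values as near to 0 as -0.09.

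Slbp had 115.9, 115.3, 113.0 and 118.9 CPM in M3KD, 121.2, 117.1, 121.7 and 119.0 CPM in M14KD, and 127.4, 113.7 and 123.2 CPM in SCR. SCR replicate 2 was again below the other SCR libraries, at the low end of the M3KD range. Slbp was not called by edgeR with all libraries (log2 -0.07 ± 0.04 in M3KD and -0.02 ± 0.04 in M14KD), and without SCR replicate 2 it fell in M3KD (log2 -0.11, edgeR adjusted p = 0.00758) and had -0.07 in M14KD (adjusted p = 0.178). With all libraries, limma-voom with quality weights called Slbp lower in M3KD (log2 -0.10, limma-voom adjusted p = 0.0297).

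By edgeR with all libraries, origin licensing held calls in M3KD against SCR only. Of its 9 genes, 1 rose and 1 fell in M3KD against SCR, and 0 were called in M14KD against SCR. In these comparisons 26.5% and 14.7% of all 34 members and 31.3% and 20.9% of all genes were called. The licensing group's median log2 changes were -0.01 in M3KD and -0.02 in M14KD. With SCR replicate 2 left out, 0 rose and 1 fell in M3KD, 0 were called in M14KD, and the medians were -0.04 and -0.05, with 6 and 7 of the 9 values negative. Mcm2, a subunit of the replicative helicase, had 619.6, 643.7, 638.4 and 653.7 CPM in M3KD, 659.8, 656.4, 660.5 and 663.9 CPM in M14KD, and 651.5, 639.0 and 679.7 CPM in SCR. The M3KD libraries were all below the M14KD libraries, and SCR overlapped with both. Its log2 fold change was -0.04 ± 0.03 in M3KD, 0.01 ± 0.03 in M14KD, and -0.05 ± 0.03 in M3KD against M14KD (edgeR adjusted p = 0.350, 0.895 and 0.362).

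Mcm3, another subunit of the helicase ring, had 390.5, 397.0, 390.9 and 403.4 CPM in M3KD, 405.8, 400.1, 417.4 and 397.6 CPM in M14KD, and 412.0, 413.1 and 429.5 CPM in SCR. All M3KD libraries were below all SCR libraries. It fell by 5.44% in M3KD (log2 -0.08 ± 0.03, edgeR adjusted p = 0.0499), a call lost in 9 of the 11 fits that left out a library (all but SCR replicates 1 and 2). The other ring subunits Mcm4, Mcm5, Mcm6 and Mcm7 had log2 changes of -0.08 to 0.10 in M3KD and -0.07 to 0.09 in M14KD, and none passed the test by edgeR in either.

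The loading factors and their inhibitor differed in how far SCR replicate 2 set their values. Gmnn had 45.7, 42.8, 45.9 and 45.1 CPM in M3KD, 41.3, 41.3, 41.2 and 41.0 CPM in M14KD, and 42.1, 37.7 and 43.1 CPM in SCR. All M3KD libraries exceeded all M14KD libraries, and 1 M3KD library lay within the SCR range. Gmnn rose by 9.35% in M3KD against SCR (log2 0.13 ± 0.05, edgeR adjusted p = 0.0379), but without SCR replicate 2, its lowest library, the change was 0.07 (adjusted p = 0.219). Relative to M14KD, Gmnn in M3KD had 0.12 ± 0.04 (edgeR adjusted p = 0.0815) with all libraries, and 0.12 (adjusted p = 0.0174) without SCR replicate 2. The call against SCR was also lost without M3KD replicate 1, 3 or 4 or M14KD replicate 3.

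Cdc6, the ATPase that helps load the helicase, had 50.6, 49.4, 51.9 and 49.7 CPM in M3KD, 48.6, 47.0, 50.3 and 49.1 CPM in M14KD, and 51.5, 46.9 and 52.5 CPM in SCR. All 3 groups overlapped, with log2 fold changes of 0.00 ± 0.04 in M3KD and -0.05 ± 0.04 in M14KD (edgeR adjusted p = 1 and 0.488). Cdt1, the other loading factor, had 78.5 to 80.5 CPM in M3KD, 77.3 to 82.1 CPM in M14KD, and 79.5, 94.5 and 84.0 CPM in SCR. SCR replicate 2 was its highest library. The log2 change was -0.12 ± 0.05 in each knockdown (adjusted p = 0.0557 in M3KD and 0.0570 in M14KD), and -0.04 and -0.05 without that library.

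Among the helicase activators, Mcm10 was the single member called and had the largest increase of the 34 in M3KD against SCR. Mcm10 had 47.9, 49.2, 44.4 and 49.8 CPM in M3KD, 42.8, 46.0, 41.9 and 43.9 CPM in M14KD, and 40.6, 42.0 and 42.4 CPM in SCR. Every M3KD library was above every SCR library, while M14KD overlapped with both. Mcm10 rose by 14.7% in M3KD (log2 0.20 ± 0.05, edgeR adjusted p = 0.00256), and the call was kept in all 18 alternative fits, with log2 values of 0.18 to 0.23. In M14KD it had 0.07 ± 0.05 (adjusted p = 0.347). Relative to M14KD, Mcm10 in M3KD had 0.13 ± 0.04 (edgeR adjusted p = 0.0602) with all libraries and 0.13 (adjusted p = 0.0184) without SCR replicate 2.

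The other activators were not called. The GINS subunit Gins1, the member with the fewest counts, had 13.3 to 14.3 CPM in M3KD, 12.7 to 14.1 CPM in M14KD and 11.95 to 12.8 CPM in SCR, with log2 changes of 0.17 ± 0.06 in M3KD (edgeR adjusted p = 0.0560) and 0.16 ± 0.06 in M14KD (edgeR adjusted p = 0.0932). Its M3KD libraries were all above SCR, and 1 M14KD library fell within the SCR range. Gins2, Gins3 and Cdc45 had log2 changes of -0.08 to 0.05 in M3KD and -0.02 to 0.07 in M14KD. Exons of Gins2 overlap those of Gse1 on the other strand by up to 2758 bases, so its count carries the same uncertainty as that of Chaf1a.

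Of the polymerases and primase, Pold1 was called in both knockdowns. Pold1 encodes the catalytic subunit of polymerase delta, which extends the lagging strand. It had 129.8, 128.4, 127.4 and 131.8 CPM in M3KD, 128.9, 124.3, 128.6 and 128.4 CPM in M14KD, and 140.1, 135.0 and 141.4 CPM in SCR. All 8 knockdown libraries were below the 3 SCR libraries. Pold1 fell by 6.87% in M3KD (log2 -0.10 ± 0.03, edgeR adjusted p = 0.0156) and fell by 8.16% in M14KD (log2 -0.12 ± 0.03, edgeR adjusted p = 0.00750). The M3KD call was lost without SCR replicate 3, and the M14KD call was kept without each library.

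Pole, the catalytic subunit of the leading strand polymerase epsilon, had 75.7, 73.2, 77.2 and 80.5 CPM in M3KD, 75.4, 75.3, 76.2 and 77.6 CPM in M14KD, and 80.1, 81.3 and 77.8 CPM in SCR. Its M14KD libraries lay just below SCR without overlap, yet its log2 change there was -0.07 ± 0.04 (edgeR adjusted p = 0.217). Pola1 and Prim1, which start each strand with a short primer, had log2 changes of -0.03 to 0.04 in M3KD and 0.02 to 0.07 in M14KD, and neither was called by edgeR.

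Around the clamp, Lig1 was the single member called. Lig1, the ligase that seals Okazaki fragments, had 164.7, 171.3, 157.6 and 160.3 CPM in M3KD, 170.4, 163.8, 170.4 and 162.0 CPM in M14KD, and 178.1, 168.7 and 179.9 CPM in SCR. SCR replicates 1 and 3 were above all knockdown libraries and SCR replicate 2 was not. It fell by 6.90% in M3KD (log2 -0.10 ± 0.04, edgeR adjusted p = 0.0325), and had -0.07 ± 0.04 in M14KD (edgeR adjusted p = 0.146). Without SCR replicate 2 it fell in both, with -0.13 in M3KD (adjusted p = 0.00244) and -0.10 in M14KD (adjusted p = 0.0256). The M3KD call was lost without SCR replicate 1 or 3, M3KD replicate 3 or 4, or M14KD replicate 1 or 4.

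Pcna, the sliding clamp, had 391.6, 427.7, 379.7 and 436.2 CPM in M3KD, 372.2, 450.1, 445.3 and 461.0 CPM in M14KD, and 441.0, 368.7 and 458.0 CPM in SCR. Each group held both high and low libraries, and all 3 groups overlapped. Pcna had the highest coefficient of variation of the 34 members within each group, 6.70% in M3KD, 9.37% in M14KD and 11.2% in SCR. Its log2 fold changes were -0.05 ± 0.10 in M3KD and 0.03 ± 0.10 in M14KD (edgeR adjusted p = 0.756 and 0.858), with 95% intervals of -0.27 to 0.18 and -0.19 to 0.26. Without SCR replicate 2, its lowest library, the changes were -0.14 in M3KD and -0.06 in M14KD, and neither was called. The flap nuclease Fen1 and the clamp loader subunits Rfc2, Rfc3 and Rfc4 had log2 changes of -0.06 to 0.03 in M3KD and -0.05 to 0.06 in M14KD, and did not pass the test in either.

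In nucleotide supply, Tk1 rose in M3KD and the other 3 genes were not called. Tk1, the thymidine kinase of the salvage pathway, had 63.5, 59.5, 58.7 and 60.6 CPM in M3KD, 53.8, 59.4, 56.5 and 54.7 CPM in M14KD, and 54.5, 58.0 and 54.7 CPM in SCR. The M3KD libraries were above all SCR libraries, and the M14KD libraries overlapped with both. Tk1 rose by 8.71% in M3KD (log2 0.12 ± 0.04, edgeR adjusted p = 0.0354) and had 0.01 ± 0.04 in M14KD (adjusted p = 0.915). The M3KD call was lost without SCR replicate 1 or 3 or M3KD replicate 1 or 4. Relative to M14KD, Tk1 in M3KD had 0.11 ± 0.04 (adjusted p = 0.0864) with all libraries, and 0.11 (adjusted p = 0.0280) without SCR replicate 2.

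Rrm2, the small subunit of ribonucleotide reductase, had 283.0, 279.7, 269.9 and 288.0 CPM in M3KD, 279.4, 284.2, 281.7 and 303.6 CPM in M14KD, and 276.0, 256.3 and 278.3 CPM in SCR. The M14KD libraries were above SCR without overlap, and M3KD overlapped with SCR. It had log2 changes of 0.05 ± 0.04 in M3KD (edgeR adjusted p = 0.313) and 0.09 ± 0.04 in M14KD (edgeR adjusted p = 0.101). Rrm1, the large subunit, was the steadiest member, with a highest to lowest ratio of 1.04 over the 11 libraries. Tyms, which makes thymidylate, had log2 changes of -0.02 ± 0.05 in M3KD and 0.04 ± 0.05 in M14KD.

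Groups that did not overlap were counted over the members as well. In M3KD against SCR, 8 members did not overlap (23.5%, beside 35.5% of all genes), higher for Mcm10, Tk1 and Gins1 and lower for Chaf1b, E2f1, Pold1, Mcm3 and Rfc4. In M14KD against SCR there were 6 (17.6%, beside 28.9%), higher for Rrm2 and lower for Chaf1b, E2f1, E2f2, Pold1 and Pole. In M3KD against M14KD there were 4 (11.8%, beside 17.6%), higher in M3KD for E2f2, Gmnn and Chaf1a and lower for Mcm2. Leaving out SCR replicate 2, the counts were 14 in M3KD against SCR (41.2%, beside 45.7%), 14 in M14KD against SCR (41.2%, beside 38.6%) and 4 in M3KD against M14KD (11.8%, beside 17.5%). Both knockdowns share the SCR libraries, so their values against SCR are not independent of each other.

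SCR replicate 2 had the lowest CPM of all 11 libraries for 14 of the 34 members and the highest for 6. Its median member stood 0.06 lower on the log2 scale than the mean of the other SCR libraries. Without it, 24 members had a lower log2 fold change in M3KD against SCR and 24 in M14KD against SCR, and 6 and 9 members had the opposite sign. None of these counts was made over all genes. By edgeR without SCR replicate 2, M3KD against SCR had 2 members higher (5.88%, beside 15.3% of all genes) and 7 lower (20.6%, beside 15.1%). Likewise without it, M14KD against SCR had 7 lower (20.6%, beside 10.1%), and M3KD against M14KD had 5 higher (14.7%, beside 7.22%), namely E2f2, Chaf1a, Gmnn, Tk1 and Mcm10. In either direction the shares were 26.5%, 20.6% and 14.7% of the members, beside 30.3%, 19.5% and 14.8% of 14316 genes tested and 40.1%, 26.0% and 20.8% of the 8616 within the members' CPM range. Shares by direction within that range were not counted. Members called by edgeR in none of the 3 comparisons, with or without SCR replicate 2, numbered 22. The matching share of all genes was not counted.

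**Figure D3:**
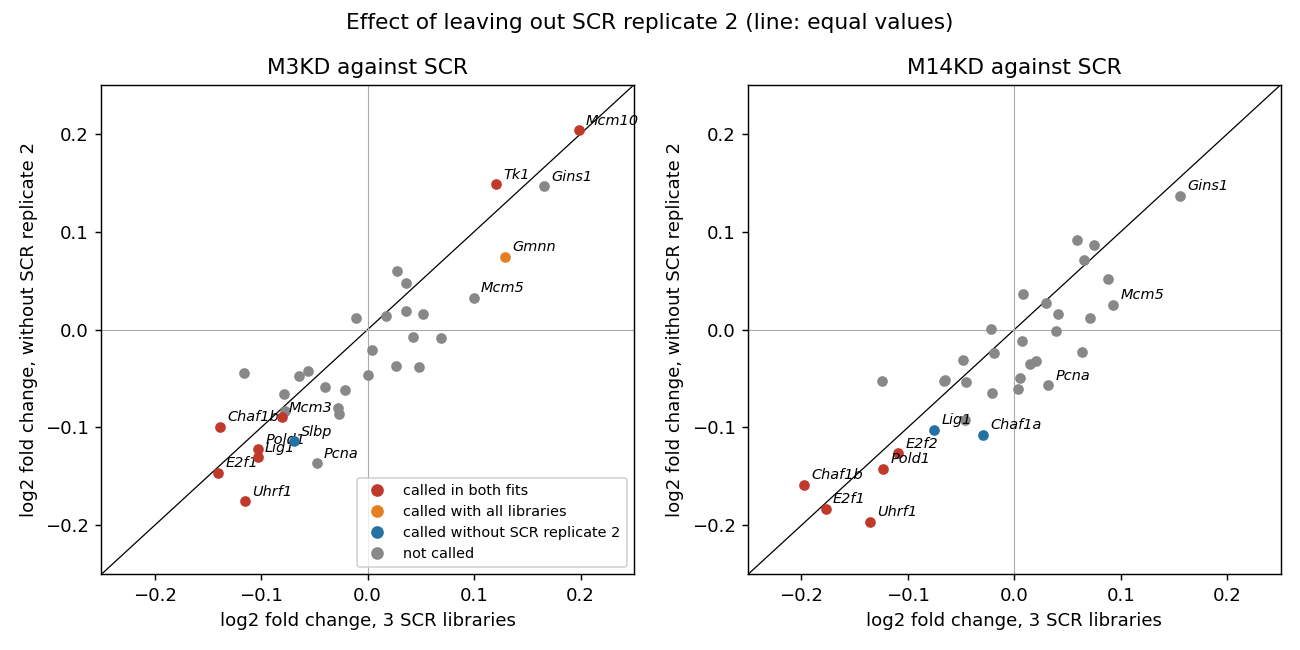
Log2 fold change of the 34 members with all libraries (horizontal axis) and without SCR replicate 2 (vertical axis), for M3KD against SCR and M14KD against SCR; red members were called by edgeR in both fits, orange only with all libraries, blue only without SCR replicate 2, and grey in neither. Most points, 24 in each panel, lie below the diagonal, where the value is lower without SCR replicate 2.

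The coefficient of variation of a member's CPM within a group had a median of 2.49% in M3KD, 2.89% in M14KD and 4.31% in SCR. The highest library exceeded the lowest by 1.04-fold (Rrm1) to 1.26-fold (E2f1) across all 11.

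**Figure D4:**
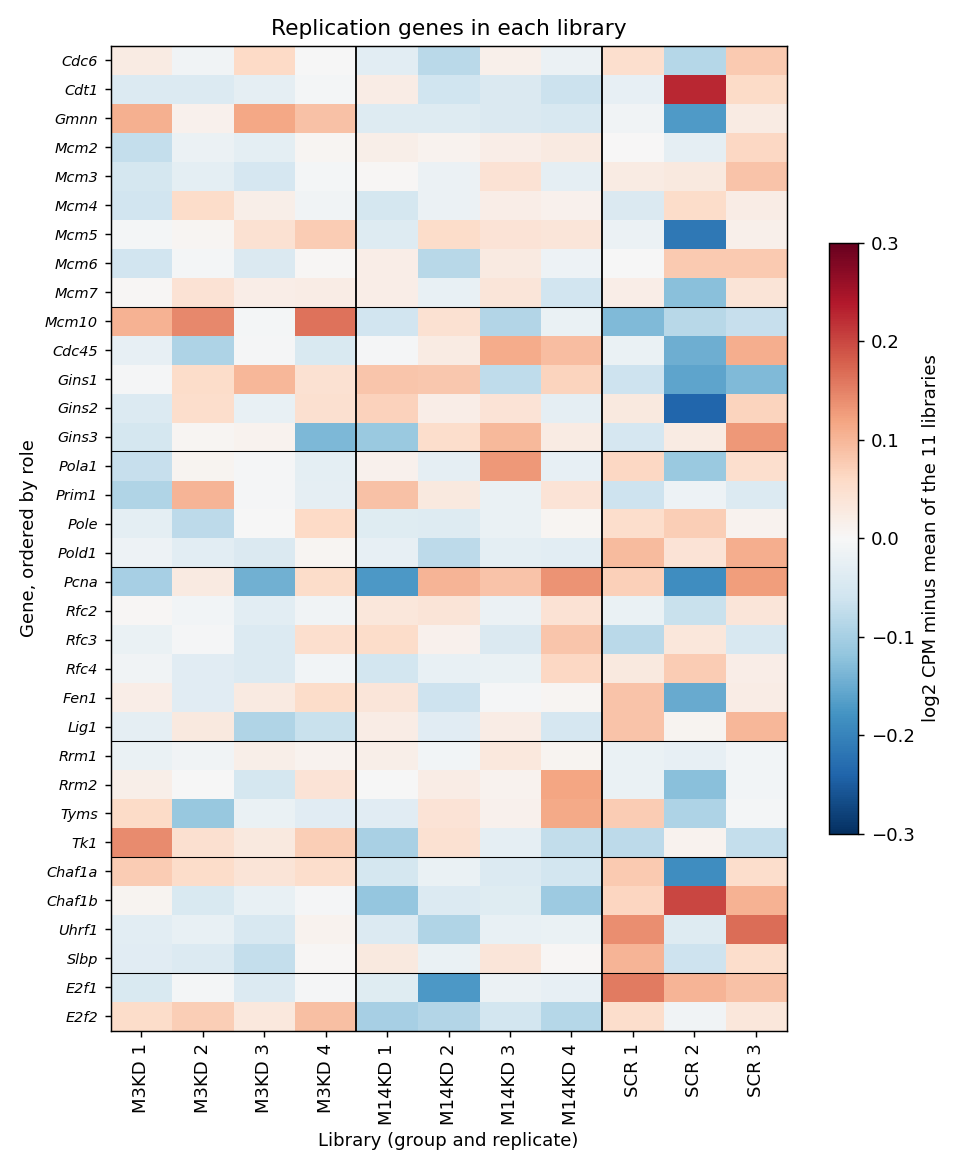
Deviation of each member from its mean over the 11 libraries (log2 CPM, colour), with genes in rows by role and libraries in columns as M3KD, M14KD and SCR. SCR replicate 2 holds the lowest value of 14 rows and the highest of 6; E2f1 and Chaf1b are lower in the knockdown columns.

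Levels were compared between genes per kilobase of the longest coding transcript in GENCODE M21. Pcna had the highest level per kilobase, 269 ± 18 CPM in M3KD, 285 ± 27 in M14KD and 278 ± 31 in SCR. Mcm2 followed with 190 ± 4 in M3KD, 196 ± 1 in M14KD and 195 ± 6 in SCR, and then Mcm3 and Rrm2. Mcm10 was the lowest in all 3 groups, at 9.83 ± 0.50 in M3KD, 8.97 ± 0.36 in M14KD and 8.56 ± 0.20 CPM per kilobase in SCR. Just above it, Gins1, Gins2, E2f2, Pole, Cdc6 and Gins3 ran from 10.5 to 11.3 CPM per kilobase in SCR, and neighbours in that order differed by less than their SD. Per kilobase, the clamp and the ring subunits Mcm2 and Mcm3 were thus above the activators Mcm10 and Gins1 to Gins3 in every group.

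Among the 58 other replication genes, all of which were tested, 6 rose and 11 fell in M3KD against SCR (29.3%, beside 31.3% of all genes), and 5 rose and 5 fell in M14KD against SCR (17.2%, beside 20.9%). The list's median log2 change was -0.02 in M3KD and 0.00 in M14KD. Its 2 changes past 1.2-fold, Pole4 and Dut in M3KD against SCR, exceeded those of every member. Pole4, a histone-fold subunit of polymerase epsilon, had 66.6, 66.0, 68.0 and 66.6 CPM in M3KD, 61.8, 60.6, 64.6 and 63.7 CPM in M14KD, and 52.8, 52.6 and 53.8 CPM in SCR. No group overlapped with another. Pole4 rose by 25.9% in M3KD (log2 0.33 ± 0.04, edgeR adjusted p = 7.83e-07) and by 18.1% in M14KD (log2 0.24 ± 0.04, edgeR adjusted p = 7.29e-05).

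Dut, the dUTPase that keeps uracil out of DNA, had 174.8, 164.4, 171.4 and 172.2 CPM in M3KD, 184.7, 176.2, 172.9 and 174.4 CPM in M14KD, and 213.7, 203.3 and 206.0 CPM in SCR. All knockdown libraries were below SCR. Dut fell by 17.8% in M3KD (log2 -0.28 ± 0.03, edgeR adjusted p = 2.23e-06) and fell by 14.8% in M14KD (log2 -0.23 ± 0.03, edgeR adjusted p = 4.71e-05). The repressive factor E2f4 fell in both (log2 -0.18 ± 0.04 in M3KD and -0.14 ± 0.04 in M14KD), as did the histone chaperone Asf1b (-0.17 ± 0.03 in M3KD and -0.16 ± 0.03 in M14KD).

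Among the remaining named genes of that list, Pole3, the histone-fold partner of Pole4, rose in M3KD (log2 0.25 ± 0.05, edgeR adjusted p = 0.000523) and in M14KD (0.16 ± 0.05, edgeR adjusted p = 0.0254), with 0.20 (adjusted p = 0.000433) and 0.10 (adjusted p = 0.0839) without SCR replicate 2. Gins4, the fourth GINS subunit, rose in M3KD with all libraries (0.16 ± 0.05, edgeR adjusted p = 0.0139), and had 0.10 (adjusted p = 0.0954) without SCR replicate 2; in M14KD it had 0.10 ± 0.05 (adjusted p = 0.150). In M14KD the histone chaperone Nasp rose by 0.16 ± 0.04 (edgeR adjusted p = 0.00912), with 0.10 (adjusted p = 0.0317) without SCR replicate 2, and had 0.09 ± 0.04 in M3KD (adjusted p = 0.105). The fork protection factor Timeless rose in M3KD (0.13 ± 0.04, edgeR adjusted p = 0.0239) and in M14KD (0.16 ± 0.04, edgeR adjusted p = 0.0126), with 0.08 (adjusted p = 0.159) and 0.10 (adjusted p = 0.0717) without that library. Of the proliferation markers, Ccnb1, the mitotic cyclin B1, rose in both knockdowns (log2 0.08 ± 0.03, edgeR adjusted p = 0.0459 in M3KD, and 0.13 ± 0.03, edgeR adjusted p = 0.00496 in M14KD), and Mki67 had 0.02 ± 0.03 in M3KD and 0.00 ± 0.03 in M14KD (edgeR adjusted p = 0.650 and 0.999).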

How the data were processed

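The authors deposited 1 table of estimated counts per gene with a column for each of the 11 libraries, keyed by Ensembl identifiers. Kallisto is named without a version per the submitters' processing notes. Per the labels' protocols, Trizol and column purification were followed by a stranded messenger RNA library kit. Build, annotation, strand setting and length scaling were not given in the sources used here. Of the deposited expected count values, 11.5% were not whole, and all were rounded here. Of 53947 rows, 48651 matched a symbol.

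The table was fitted whole with edgeR 4.0.16 in R 4.3.3. The filterByExpr function (minimum count 10) kept 14133 genes with 99.9% of counts, TMM factors were applied, and all 11 libraries entered 1 fit with a mean per group (8 residual degrees of freedom, common biological coefficient of variation 4.38%). The quasi-likelihood F-test was two-sided, with Benjamini-Hochberg adjustment at 0.05. SE is the absolute log2 fold change over the square root of F, an approximation. Alternatives were DESeq2 1.42.0, limma-voom 3.58.1 with quality weights, other scalings, no filter, only the groups compared, a replicate block, and each library left out. The script was tested on simulated data.

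Members, lists and tests were chosen with earlier results of these data known. Members called with or without SCR replicate 2 were named with every library's value, as were Mcm2, Pcna, Cdc6 and Rrm2; other replication genes were the 3 with the smallest adjusted p per direction. Cdt1, Gins1, Pole and Ccnb1 values were added after they were seen. Every replicate pair differed by more than counting error (chi-square over its degrees of freedom at least 2.1). Promoter windows came from RefSeq (GRCm38.p6); transcript lengths and exon overlaps from GENCODE M21.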

Additional observations from a re-analysis of the deposited data

Results flagged for a closer look

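In 72 groups of 4 libraries checked (each member and target in M3KD and M14KD), 4 held a library far from the other 3, beside the roughly 1 in 20 that chance gives. All 4 were low values in M14KD. E2f1 had 78.25 CPM in M14KD replicate 2, with 85.97 to 87.22 in the other 3. Pold1 had 124.3 CPM in the same library, with 128.4 to 128.9 in the others. Gins1 had 12.65 CPM in M14KD replicate 3, with 13.97 to 14.12 in the others, and Rfc2 had 109.2 CPM there, with 113.1 to 113.8 in the others. The calls of E2f1 and Pold1 in M14KD against SCR were kept without M14KD replicate 2.

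E2f2 differed between the knockdowns: its change against SCR was 0.1453 higher on the log2 scale in M3KD than in M14KD, by the edgeR test of M3KD against M14KD (adjusted p = 0.00953).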

How the results depend on the processing

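Each result was recomputed under 18 alternatives. The calls of Mcm10, Chaf1b and E2f1 in M3KD against SCR, of Pold1, Chaf1b and E2f1 in M14KD against SCR, and of E2f2 in M3KD against M14KD were kept in all of them. Other calls were lost in some fits beside those already named: Gmnn and Tk1 in M3KD by DESeq2, Gmnn by limma-voom, Mcm3 with RLE factors, Mcm3, Pold1 and Lig1 with no filter, Gmnn, Mcm3, Lig1 and Uhrf1 with only the groups compared; and in M14KD E2f2 by DESeq2, with no filter and with only the groups compared, and Uhrf1 with the last. In M3KD against SCR, DESeq2 called 1 member higher, and the fit of only the groups compared called 3 lower. In M14KD against SCR, limma-voom gave a median of -0.0323, and the fit of only the groups compared called 3 lower. In M3KD against M14KD, members called higher numbered 2 with no filter, 5 by limma-voom and 5 with only the groups compared, which also called 1 lower; all genes called numbered 1868 by limma-voom and 2187 with only the groups compared, against 1145. Leaving out a library gave 1 to 3 members higher and 2 to 7 lower in M3KD against SCR (2 lower without SCR replicate 3, 3 without M3KD replicate 3 or M14KD replicate 1 or 4, and 1 higher without M3KD replicate 1 or 4), with medians of -0.0434 to 0.0244. It gave 0 to 2 higher and 3 to 7 lower in M14KD against SCR (3 lower without SCR replicate 3 or M14KD replicate 1 or 2; 2 higher without SCR replicate 3, 1 without M14KD replicate 3), with medians of -0.0335 to 0.0330. In M3KD against M14KD it gave 1 to 5 higher (5 without SCR replicate 2, 3 without M14KD replicate 2, 2 without M3KD replicate 3) and 713 to 2125 genes called (713 to 762 without M3KD replicate 1 or 4 or M14KD replicate 1, 3 or 4, and 2125 without SCR replicate 2). The values that changed sign were not called with all libraries by edgeR. In M3KD against SCR, Cdc6 had 0.0011 by DESeq2 and by RLE factors, 0.0043 with no filter, 0.0033 with only the groups compared, and -0.0466 to 0.0402 with a library left out; Chaf1a ran from -0.0086 to 0.1157 and Pcna from -0.1367 to 0.0215. In M14KD against SCR, limma-voom gave Gmnn -0.0347, Mcm2 -0.0077 and Pcna -0.0361, and leaving out a library gave Tk1 -0.0195 to 0.0367, Chaf1a -0.1075 to 0.0182, Slbp -0.0651 to 0.0153, Gmnn -0.0490 to 0.0512, Mcm2 -0.0117 to 0.0404 and Pcna -0.0566 to 0.1021. The cause was not tested.

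Libraries of different groups with the same replicate number did not deviate alike: correlations of the 10 same-numbered pairs ran from -0.118 to 0.067. Pairs with different numbers ran from -0.1 to 0.137. Whether replicate numbers pair the samples was left undecided, since a weak shared effect would also give low correlations. With the number as a block, M3KD against SCR had 2 members higher and 4 lower, M14KD against SCR 4 lower and M3KD against M14KD 1 higher, and the calls of Mcm3, Lig1 and Tk1 in M3KD and of E2f2 in M14KD were lost; Cdc6 had 0.0031 in M3KD and Pcna -0.0024 in M14KD. Members held at least 239 counts per library, and SE in M3KD against SCR ran from 0.0284 (Rrm1) to 0.0982 (Pcna) on the log2 scale, so the size of change that could be called differed between members.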
